A study of Mus musculus with 8 samples.

Results

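The AP-1 Fos and Jun family comprises 7 genes, chosen by symbol, among the 22753 genes in a table of nascent transcription from mouse macrophages: Fos, Fosb, Fosl1 and Fosl2, and Jun, Junb and Jund. AP-1 is a dimeric transcription factor that binds DNA through paired basic leucine zippers. Fos proteins bind DNA only together with a partner such as a Jun protein, whereas Jun proteins can also pair with each other, so the mixture of members made in a cell sets which dimers can form. In macrophages, lipopolysaccharide (LPS), a component of the bacterial outer membrane sensed by Tlr4, activates the ERK, JNK and p38 kinases, which act on factors bound at the Fos and Jun promoters and on the Fos and Jun proteins themselves.

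The cells were bone marrow-derived macrophages of 8-week-old male C57BL/6 mice, grown out from marrow and moved to serum-free medium before treatment. They were left untreated (0 min) or given LPS at 100 ng/ml for 20, 60 or 180 min, with 2 biological replicates at each time and therefore 8 libraries. Transcription was measured by GRO-seq, in which nuclei are allowed to extend RNA already under synthesis in the presence of BrUTP and the labelled RNA is captured with an antibody and sequenced, so the values report engaged polymerase rather than accumulated mRNA. Levels are FPKM, read numbers scaled for gene length and library depth, and different genes are set side by side on this scale. The scale averages over each whole gene span, and how reads lay along the spans was not examined.

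Each member was listed once on mm9, with the whole gene span as its length. Fos (NM_010234) lay at chr12:86814851-86818219 on the plus strand, Jun (NM_010591) at chr4:94715727-94718913 on the minus strand, and Junb (NM_008416) at chr8:87500808-87502647 on the minus strand. Jund (NM_001286944) lay at chr8:73221638-73224515 and Fosl2 (NM_008037) at chr5:32438845-32460212, both on the plus strand. Fosb (NM_008036) lay at chr7:19888045-19895394 on the minus strand and Fosl1 (NM_010235) at chr19:5447698-5455938 on the plus strand. Fosl2 was the longest at 21367 bases and Junb the shortest at 1839 bases.

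Promoter sequence was read from RefSeq, build GRCm38.p6, as the 250 bases before the annotated start, and 6 of the 7 members matched; Fosl1 did not. The windows of Fos, Jun and Junb are shown because these genes moved together in the first 20 min, and that of Fosl2 because its level was highest later. Capitals mark matches to the motifs described after the sequences, on either strand.
Fos (chr12:85473640-85473889, plus strand): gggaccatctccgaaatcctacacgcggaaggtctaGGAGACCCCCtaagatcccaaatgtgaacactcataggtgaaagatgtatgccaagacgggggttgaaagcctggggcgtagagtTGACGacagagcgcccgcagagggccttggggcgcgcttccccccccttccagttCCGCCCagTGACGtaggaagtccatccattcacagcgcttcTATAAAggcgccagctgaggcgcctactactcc
Jun (chr4:95052223-95052472, minus strand): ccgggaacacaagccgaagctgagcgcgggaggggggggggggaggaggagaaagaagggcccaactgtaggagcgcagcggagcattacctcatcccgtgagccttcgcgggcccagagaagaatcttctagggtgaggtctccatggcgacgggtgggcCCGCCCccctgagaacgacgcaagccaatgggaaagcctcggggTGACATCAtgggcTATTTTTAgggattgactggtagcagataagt
Junb (chr8:84978749-84978998, minus strand): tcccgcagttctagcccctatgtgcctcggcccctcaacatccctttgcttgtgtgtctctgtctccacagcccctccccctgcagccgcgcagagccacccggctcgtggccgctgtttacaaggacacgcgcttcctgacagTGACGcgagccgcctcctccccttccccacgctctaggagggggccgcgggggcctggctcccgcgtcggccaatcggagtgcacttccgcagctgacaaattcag
Fosl2 (chr5:32136222-32136471, plus strand): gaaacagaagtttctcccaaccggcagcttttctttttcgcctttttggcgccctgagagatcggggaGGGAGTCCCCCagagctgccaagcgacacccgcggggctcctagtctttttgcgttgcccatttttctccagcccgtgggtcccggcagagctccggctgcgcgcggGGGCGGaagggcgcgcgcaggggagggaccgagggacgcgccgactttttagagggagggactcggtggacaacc

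The motifs searched on both strands were TGANTCA, the classical AP-1 site, TGACGTCA, the CRE bound by CREB and ATF proteins, TATAAA, the TATA box, GGGCGG, the core bound by Sp1, the CArG box of serum response factor and the NF-kB consensus. TGACG, a CRE half-site contained in TGACGTCA, TGACATCA and TATTTTTA, an A/T-rich core of the kind bound by MEF2, were added after the sequences had been seen. Among 32851 promoter windows of the same length, 6.75% held TGANTCA, 1.55% TGACGTCA, 12.4% TATAAA, 32.7% GGGCGG, 1.47% the CArG box, 7.25% the NF-kB consensus, 17.8% TGACG, 2.93% TGACATCA and 2.45% TATTTTTA.

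The Fos window held TATAAA at -33 to -28, counted back from the start, and TGACG at -129 to -125 and -66 to -62. It also held the Sp1 core at -74 to -69 and an NF-kB consensus at -214 to -205, both on the minus strand. In the Jun window, TGACATCA at -45 to -38 was followed within a few bases by TATTTTTA at -32 to -25, with the Sp1 core at -89 to -84 on the minus strand. The Junb window held a single match, TGACG at -106 to -102. The Fosl2 window held an NF-kB consensus at -182 to -173, overlapped by another on the minus strand, and the Sp1 core at -75 to -70. Of the windows not shown, that of Fosb held TGACG at -60 to -56, an NF-kB consensus at -188 to -179 and 3 Sp1 cores, and that of Jund held no match. None of the 6 windows held TGANTCA, TGACGTCA or a CArG box, and sequence further upstream was not searched. These matches describe letters in the windows; no binding was measured.

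Libraries of replicate 1 were deeper than those of replicate 2, with 44.4 to 61.2 M reads against 7.96 to 11.1 M reads, as recovered from the step size of the FPKM values. For replicate 2 this is below the depth stated in the labels, and the read numbers and counting intervals given here rest on the recovered depth. Replicate number and depth therefore cannot be told apart. Differences between replicates were shared in part between times, with correlations of 0.59 to 0.88 across genes between the 6 pairs of times. Among 0, 20 and 60 min they were 0.78 to 0.88, and lower with 180 min, at 0.59 to 0.64. Each comparison is therefore given from a fit without the replicate number (the unpaired fit) and, where it alters a call, from one that includes it as a block (the paired fit). Both are limma fits to log2(FPKM + 0.1) over 8343 genes, all 7 members included, with calls at a Benjamini-Hochberg adjusted p under 0.05. The median gene moved by -0.20 at 20 min, -0.29 at 60 min and -0.69 at 180 min on the log2 scale, against 0 min. All 10 macrophage markers in the file passed the filter on low values, and their summed level was 99.7 to 126 FPKM at 0 min, 166 to 243 at 20 min, 132 to 156 at 60 min and 79.7 to 106 at 180 min. Neutrophil markers summed to 4.27 to 8.09 FPKM at 0 min and 10.8 to 11.5 at 180 min, with 3 of 9 past the filter. The erythroid, stromal, mast cell, dendritic, B cell and T or NK cell lists had no marker past the filter and summed to at most 1.52 FPKM in any library, with Mcpt4, Tpsb2, Hbb-b1 and Hba-a1 among the markers at 0 in all 8. What these marker levels contribute to the members' values was not tested, and in bulk nuclei fewer cells of a type and less RNA per cell cannot be told apart.

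Before LPS the family was led by Fos, Junb and Jun. Mean levels ± SD (n = 2 throughout) were 40.4 ± 8.02 FPKM for Fos, 23.2 ± 0.311 for Junb and 22.6 ± 5.0 for Jun. Jund followed at 9.48 ± 3.33 FPKM. Fosl2, Fosb and Fosl1 were far lower, at 1.85 ± 0.722, 0.91 ± 0.72 and 0.549 ± 0.403 FPKM. Junb and Jun overlapped each other, as did Fosl2 with Fosb and Fosb with Fosl1. By 60 min the order had turned over: Junb stood first at 93.2 ± 23.9 FPKM, and behind it Jund, at 6.56 and 15.5 FPKM, overlapped both Fos and Jun, with Fos above Jun. At 180 min Junb was still first at 60.4 ± 2.44 FPKM, Jund and Jun overlapped in the next place, and Fos, at 3.68 ± 1.1 FPKM, overlapped Fosl2 at 3.48 ± 1.74.

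**Figure D1:**
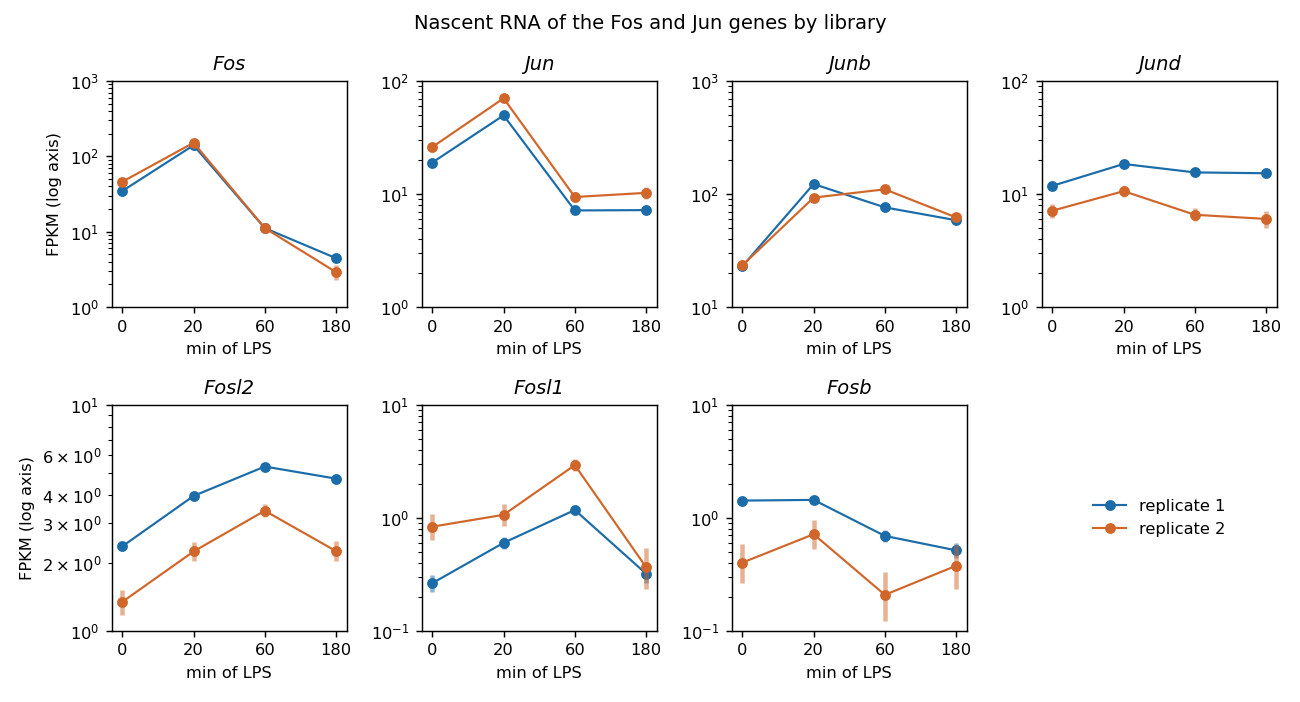
FPKM of each of the 7 genes (log axis) at 0, 20, 60 and 180 min of LPS, evenly spaced, with 1 point per library, coloured by replicate, and vertical bars giving the 95% Poisson counting interval. Fos, Jun, Jund and Fosb were highest at 20 min in both replicates and Fosl1 and Fosl2 at 60 min in both, while Junb was highest at 20 min in replicate 1 and at 60 min in replicate 2.

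Fos, the founding immediate early gene of the family, gave the widest swing. In replicates 1 and 2 it was at 34.7 and 46.1 FPKM at 0 min, 140 and 152 at 20 min, 11.2 and 11.2 at 60 min, and 4.46 and 2.91 at 180 min. The 4 times did not overlap: both libraries were highest at 20 min and both fell below their starting level by 60 min. From its highest to its lowest library value Fos spanned 31.5-fold in replicate 1 and 52.1-fold in replicate 2. The log2 difference at 20 min was 1.86 ± 0.34 (SE), which the unpaired fit did not call (adjusted p = 0.182) and the paired fit did (adjusted p = 0.00618). At 60 min Fos had fallen by 1.83 ± 0.34 against 0 min (adjusted p = 0.0163), and at 180 min by 3.44 ± 0.34 (adjusted p = 0.00109). Between 20 and 60 min it fell by 3.69 ± 0.34 (adjusted p = 0.0074), and 0.0599% of the tested genes had a lower change. It fell by a further 1.61 ± 0.34 from 60 to 180 min (adjusted p = 0.0372). The paired call at 20 min was lost without either 20 min library, with adjusted p of 0.0584 without replicate 1 and 0.0553 without replicate 2.

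Jun, whose protein is the main target of the JNK kinases, rose and fell alongside Fos over a smaller range. Its levels in replicates 1 and 2 were 19.0 and 26.1 FPKM at 0 min, 49.7 and 70.3 at 20 min, 7.16 and 9.42 at 60 min, and 7.21 and 10.3 at 180 min. Both 20 min libraries lay above all others and the 60 and 180 min libraries overlapped each other, below both 0 min libraries. The difference at 20 min was 1.40 ± 0.37 on the log2 scale (unpaired adjusted p = 0.475, paired adjusted p = 0.00618). Jun fell by 2.83 ± 0.37 from 20 to 60 min (adjusted p = 0.0124), which left it lower than at 0 min by 1.43 ± 0.37 at 60 min (adjusted p = 0.0488). At 180 min it remained 1.36 below 0 min, a log2 change of -1.36 ± 0.37 (adjusted p = 0.032), and the change from 60 to 180 min was 0.07 ± 0.37 (adjusted p = 0.93). With the libraries scaled by median ratios, which sets the median gene near 0, the change at 180 min was -0.63 and was not called by the unpaired fit (adjusted p = 0.469) or the paired fit (adjusted p = 0.0722). In the paired fit the 20 min call was lost without 0 min replicate 2 (adjusted p = 0.052), 20 min replicate 1 (0.0986) or 20 min replicate 2 (0.066).

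Junb, a Jun protein with weaker transactivation than Jun in many settings, rose as early as Fos but stayed high. It was at 23.0 and 23.4 FPKM at 0 min, 123 and 93.1 at 20 min, 76.2 and 110 at 60 min, and 58.7 and 62.2 at 180 min. Every LPS library exceeded both untreated ones, the 20 and 60 min libraries overlapped, and the 180 min libraries lay between these and the start. Its log2 difference at 20 min was 2.20 ± 0.34 (unpaired adjusted p = 0.106, paired adjusted p = 0.00257), the largest of the 7. The paired call held without each of the 8 libraries in turn, with a highest adjusted p of 0.0461. Junb was higher than at 0 min by 1.98 ± 0.34 at 60 min (adjusted p = 0.0129) and by 1.38 ± 0.34 at 180 min (adjusted p = 0.0235). From 20 to 60 min, while Fos and Jun fell, its change was -0.22 with a 95% interval of -1.03 to 0.59 (adjusted p = 0.846). From 60 to 180 min the change was -0.60 ± 0.34, which neither the unpaired (adjusted p = 0.316) nor the paired fit (adjusted p = 0.1) called.

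Jund, the Jun protein generally present in resting cells, had the narrowest range of the 7, with 1.56-fold and 1.76-fold between its highest and lowest library in replicates 1 and 2. Its levels were 11.8 and 7.13 FPKM at 0 min, 18.5 and 10.6 at 20 min, 15.5 and 6.56 at 60 min, and 15.3 and 6.03 at 180 min. The times overlapped throughout, and replicate 1 was above replicate 2 at each of them. No comparison called Jund in either fit of the deposited FPKM. The paired 95% interval of its log2 change was 0.07 to 1.13 at 20 min, -0.39 to 0.67 at 60 min and -0.47 to 0.59 at 180 min. The unpaired interval was wider, from -0.89 to 2.09 at 20 min. Scaled by median ratios, Jund was 0.80 higher at 180 min, called by the paired fit alone (adjusted p = 0.0204 against 0.259 unpaired). After this scaling the paired fit called 26.1% of genes higher at 180 min and 25.8% lower, and the unpaired fit 13.5% and 12.6%.

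Fosl2, which encodes Fra-2, a Fos protein without the strong activation domain of Fos, was highest at 60 min. It was at 2.36 and 1.34 FPKM at 0 min, 3.95 and 2.24 at 20 min, 5.33 and 3.40 at 60 min, and 4.71 and 2.25 at 180 min. Both 60 min libraries exceeded both untreated ones, whereas the 20 and 180 min libraries overlapped them. The log2 difference from 0 min was 0.71 ± 0.51 at 20 min, 1.21 ± 0.51 at 60 min and 0.83 ± 0.51 at 180 min. The unpaired fit called none of these (adjusted p = 0.997, 0.175 and 0.239), and the paired fit called 60 min (adjusted p = 0.00197) and 180 min (0.00712) but not 20 min (0.109). The paired call at 180 min was lost without either 0 min library (adjusted p = 0.0778 and 0.0726).

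Fosl1, which encodes Fra-1 and is itself a known AP-1 target, had a single narrow maximum at 60 min. Its levels were 0.264 and 0.834 FPKM at 0 min, 0.600 and 1.06 at 20 min, 1.17 and 2.92 at 60 min, and 0.320 and 0.366 at 180 min. The 60 min libraries lay above all others, and both 180 min libraries were inside the range of the untreated pair. The log2 difference at 60 min was 1.75 ± 0.59 (unpaired adjusted p = 0.0999, paired adjusted p = 0.00252). It fell by 2.15 ± 0.31 from 60 to 180 min in the paired fit (adjusted p = 0.00129, against 0.0758 unpaired), and 1.58% of tested genes had a lower change. From 20 to 60 min the change was 1.12 ± 0.59, called only with the block (adjusted p = 0.0322 against 0.382). That last call was lost without 20 min replicate 1 (adjusted p = 0.082), 20 min replicate 2 (0.175), 60 min replicate 1 (0.0622) or 60 min replicate 2 (0.255).

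The values of Fosl1 carry a further uncertainty. The gene overlaps Ccdc85b on the opposite strand by 2775 bases, and how strands were counted is not given in the sources used here. Ccdc85b was highest at 0 min in replicate 1, at 2.52 FPKM, and was at 1.24 and 0.245 FPKM at 60 min, when Fosl1 was highest. The 180 min value of Fosl1 in replicate 2 rested on 24 reads, with a 95% counting interval of 0.234 to 0.544 FPKM. No other member overlapped a listed gene.

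Fosb, known also for the truncated splice form that lasts in neurons, stayed low. It was at 1.42 and 0.401 FPKM at 0 min, 1.44 and 0.715 at 20 min, 0.691 and 0.208 at 60 min, and 0.515 and 0.376 at 180 min. Replicate 1 was higher at each time, and the 60 min libraries were both below the lower 20 min library. The lowest of these values rested on 17 reads, with a 95% counting interval of 0.121 to 0.334 FPKM. Its log2 change was 0.36 ± 0.67 at 20 min, -0.82 ± 0.67 at 60 min and -0.69 ± 0.67 at 180 min, none called by the unpaired fit (adjusted p = 0.997, 0.493 and 0.444) or the paired fit (0.574, 0.0666 and 0.0801). Between 20 and 60 min the paired fit called a change of -1.18 (adjusted p = 0.0263, against 0.428 unpaired). It was lost without 20 min replicate 1 (adjusted p = 0.0719), 20 min replicate 2 (0.152), 60 min replicate 1 (0.0645) or 60 min replicate 2 (0.195).

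**Figure D2:**
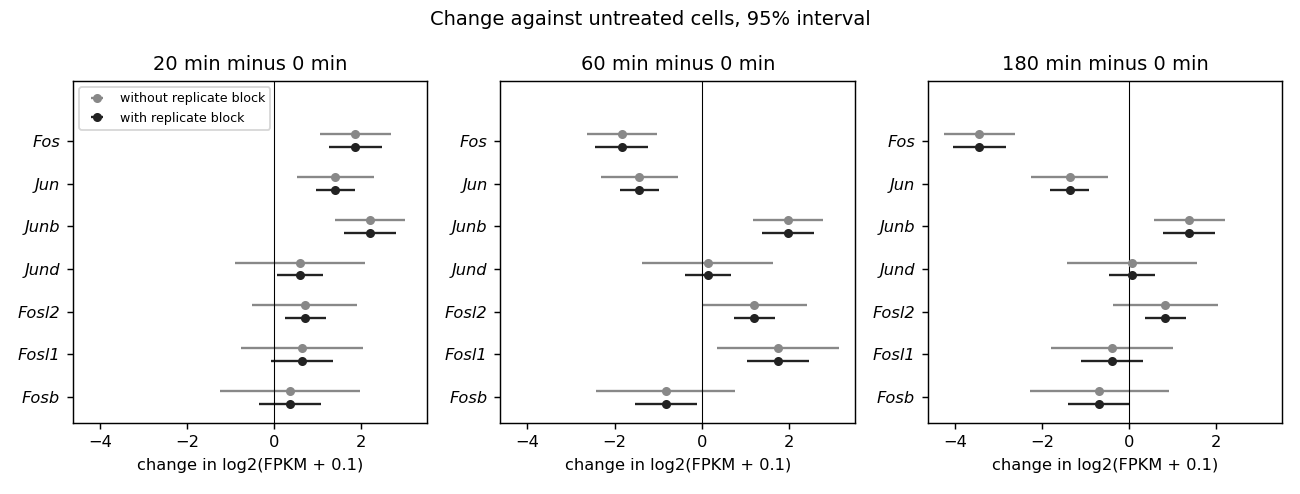
Log2 change of each member at 20, 60 and 180 min against 0 min, with 95% intervals. Grey is the unpaired fit and black the paired fit. Fos and Jun lie above 0 at 20 min and below 0 at 60 and 180 min. Junb lies above 0 in all 3 comparisons, and the intervals of Jund are centred near 0 at 60 and 180 min.

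Counted over the family, the 20 min calls in the limma fits to log2(FPKM + 0.1) rested on the pairing. In the unpaired limma fit 0 of the 7 members passed at 20 min against 0 min, where 0.108% of tested genes were called higher and 0.0% lower. Without adjustment, 3 members (Fos, Jun and Junb) had a p under 0.05, and limma-voom on the recovered reads called Fos and Junb higher, against 0.539% of genes called higher and 0.0% lower. The paired fit called Fos, Jun and Junb higher, against 2.3% of genes called higher and 0.683% lower. The 7 members had a median log2 change of 0.71, beside -0.20 over all tested genes.

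At 60 min against 0 min the unpaired fit called Junb higher, where 5.07% of genes were called higher, and Fos and Jun lower, where 8.8% were called lower. With the block Fosl1 and Fosl2 joined Junb, against 11.7% of genes called higher and 27.9% lower, and these 5 calls were kept without each of the 8 libraries in turn. In the unpaired fit the Jun call was lost without any 1 of the 8 libraries (adjusted p = 0.0602 to 0.248). The Fos call there was lost without either 0 min library (adjusted p = 0.0694 and 0.115) or either 60 min library (0.0533 and 0.0864). The Junb call was lost without either 0 min library (adjusted p = 0.0848 and 0.0797) or 60 min replicate 2 (0.0801). Without a filter the calls of Jun (adjusted p = 0.0722) and Junb (0.0647) were lost, and fitting only the 2 groups compared lost all 3 (Fos 0.0707, Jun 0.112, Junb 0.0768). Jun was also lost with a pseudocount of 0.01 or a filter of 1 FPKM (both 0.0524). The median over the 7 members was 0.14, beside -0.29 over all genes.

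At 180 min against 0 min Junb was called higher, against 8.93% of genes, and Fos and Jun lower, against 23.4%. The paired fit added Fosl2 to the higher calls, against 14.2% of genes called higher and 51.6% lower, so that a lower call at this time was common among all genes. The Fos call was kept without each library in turn. The Jun call was lost without either library of 0, 20 or 180 min (adjusted p = 0.0501 to 0.162), and the Junb call without either library of 0 or 180 min (0.0584 to 0.113). Without a filter Jun (adjusted p = 0.0517) and Junb (0.11) were not called, nor with only the 2 groups fitted (0.0625 and 0.0525). The median member changed by -0.40 and the median gene by -0.69.

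Between 20 and 60 min the unpaired fit called Fos and Jun lower, against 3.46% of genes called lower and 2.28% higher, and no member higher. The Fos call was lost without either 20 min library (adjusted p = 0.0896 and 0.0888) or 60 min replicate 2 (0.0534), and the Jun call without either 20 min library (0.0926 and 0.125) or either 60 min library (0.0583 and 0.0627). With only the 2 groups fitted neither was called (adjusted p = 0.0729 and 0.0823). With the block Fosb was also lower and Fosl1 higher, against 14.6% and 9.29% of genes. Between 60 and 180 min the unpaired fit called Fos lower, against 3.92% of genes called lower and 4.08% higher. That call was lost without each library other than 180 min replicate 1 (adjusted p = 0.0691 to 0.207) and with median-ratio scaling (0.124), where 2.89% of genes were called lower and 5.08% higher. It was lost as well under quantile scaling (adjusted p = 0.071), without a filter (0.0925) and with only the 2 groups fitted (0.137). With the block Fosl1 was called lower too, against 26.9% of genes called lower and 10.5% higher. An F-test over the 4 times called Fos, Jun and Junb in the unpaired fit, against 24.6% of genes, and every member but Jund in the paired fit, against 66.1%.

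Because the median gene moved, the counts were also made after scaling the libraries by median ratios. At 20 min the paired fit again called Fos, Jun and Junb higher, against 2.01% of genes called higher and 0.276% lower, and the unpaired fit called 0 members, against 0.0599% and 0.0%, with 4 at an unadjusted p under 0.05. At 60 min the unpaired fit called Fosl2 and Junb higher and Fos lower, against 6.72% and 6.63% of genes, and no longer Jun. The paired fit called the same 5 members as without scaling, against 19.5% and 20.3%. At 180 min the unpaired fit called Fosl2 and Junb higher and Fos lower, against 13.5% of genes called higher and 12.6% lower. The paired fit also called Jund higher, against 26.1% and 25.8%. Between 20 and 60 min the calls were the same as without scaling in both fits, against 2.37% and 3.44% of genes unpaired and 12.9% and 14.4% paired. Between 60 and 180 min the paired fit called Fos and Fosl1 lower, against 15.0% of genes higher and 13.4% lower. Between the deposited and the median-ratio values, Jun, Fosl2 and Jund each crossed the threshold in at least 1 fit against 0 min, and in the paired F-test Jund was called in place of Fosb (adjusted p = 0.0412 and 0.104). Fos and Junb were called at 60 and 180 min on both scales, but quantile scaling ended the unpaired call of Junb at 180 min (log2 change 0.57, adjusted p = 0.232).

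**Figure D3:**
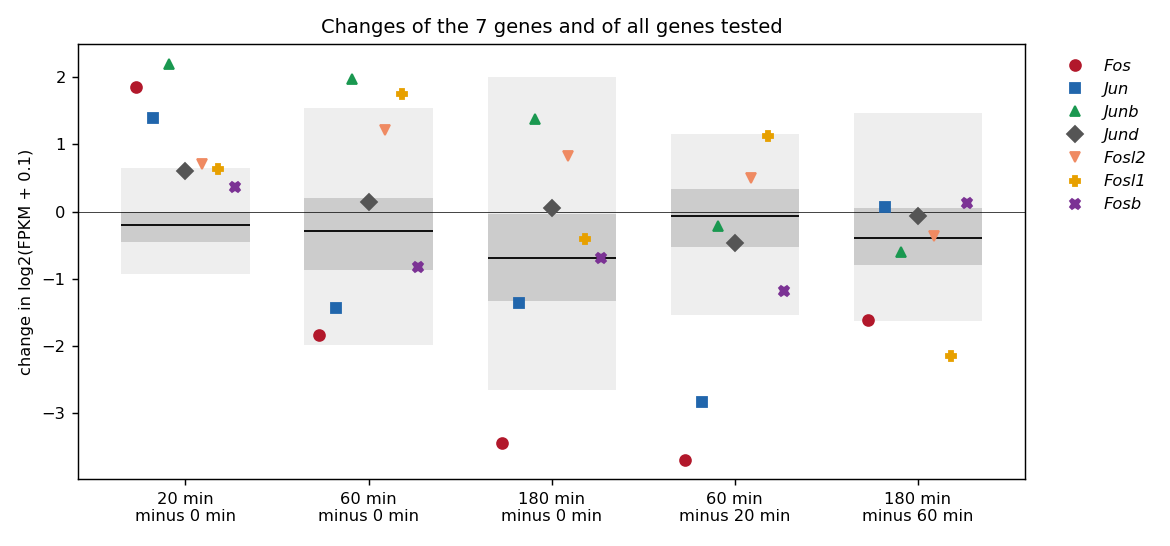
Unpaired log2 change of the 7 members (points) in each of the 5 comparisons, over grey bars for the central 90% and 50% of the 8343 tested genes and a line at their median. Fos, Jun, Junb and, narrowly, Fosl2 lie above the grey bar at 20 min, and Fos and Jun lie below it in 60 against 20 min.

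The summed level of the 7 genes was highest at 20 min, and its make-up changed afterwards. The sum was 92.6 and 105 FPKM at 0 min in replicates 1 and 2, 337 and 330 at 20 min, 117 and 144 at 60 min, and 91.2 and 84.3 at 180 min. The 20 min libraries were far above all others, and the 180 min libraries were below the untreated ones. This last order turned after median-ratio scaling, tried after the data had been seen, which put the sum at 67.2 and 92.0 FPKM at 0 min and 96.1 and 142 at 180 min. The 4 Fos genes made up 41.9% and 46.2% of the sum at 0 min and 43.4% and 47.2% at 20 min, then 15.7% and 12.3% at 60 min and 11.0% and 7.0% at 180 min. Junb alone went from 24.8% and 22.2% at 0 min to 65.0% and 76.6% at 60 min and 64.4% and 73.7% at 180 min. Nascent transcription of the family was thus led by Fos, Jun and Junb at the start and mostly by Junb from 60 min on. Shares and ratios are given as descriptions, without a test.

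**Figure D4:**
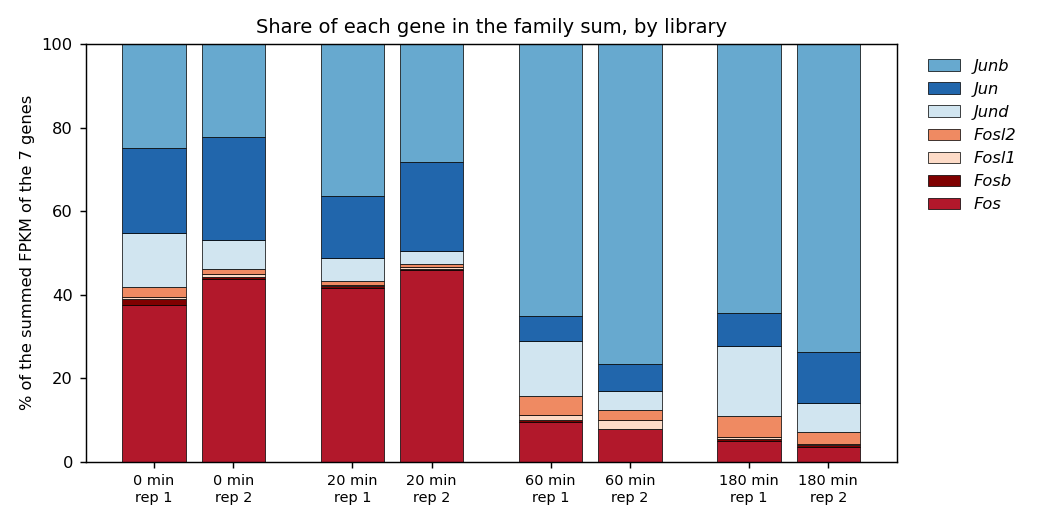
Share of the summed FPKM of the 7 genes, in percent, taken by each gene in each of the 8 libraries, as stacked bars. Fos takes 37.5% to 46.0% in the 0 and 20 min libraries and 3.45% to 9.52% in the 60 and 180 min libraries, where Junb takes 64.4% to 76.6%.

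Ratios between members followed the change in make-up. Junb over Jun was 1.21 and 0.898 at 0 min and 2.47 and 1.32 at 20 min, and reached 10.6 and 11.7 at 60 min before 8.14 and 6.06 at 180 min. The 4 libraries of 60 and 180 min were each above all 4 earlier ones. Among the Fos genes, Fos over Fosl2 was 14.7 and 34.3 at 0 min, 35.5 and 67.6 at 20 min, 2.1 and 3.29 at 60 min, and 0.946 and 1.29 at 180 min. Fosl2 thereby made up 6.1% and 2.76% of the Fos genes' sum at 0 min and 47.1% and 38.1% at 180 min, when it stood level with Fos. Fos over Jun stayed between 1.19 and 2.82 up to 60 min and was 0.618 and 0.284 at 180 min.

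**Figure D5:**
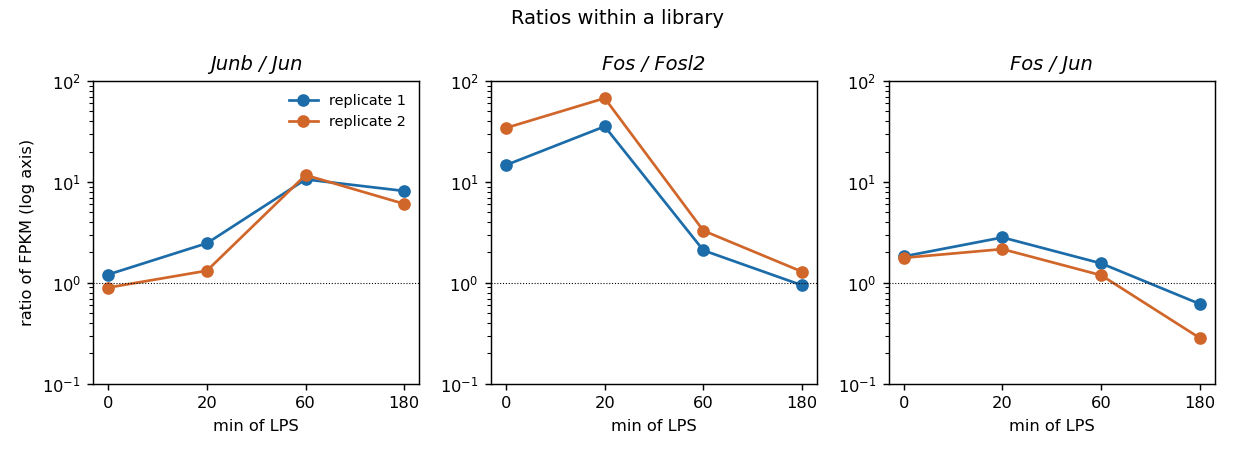
Ratios of FPKM between members (log axis, dotted line at 1) at the 4 times, 1 point per library. Junb over Jun climbs to 10.6 and 11.7 at 60 min, and Fos over Fosl2 falls to 0.946 and 1.29 at 180 min.

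The replicates differed in a gene-specific way. On the log2 scale, replicate 1 minus replicate 2 was 0.72 to 1.33 for Jund, 0.63 to 1.03 for Fosl2 and 0.37 to 1.60 for Fosb over the 4 times. It was -0.50 to -0.39 for Jun and -1.36 to -0.15 for Fosl1, so these 2 genes were higher in the shallower replicate at each time. Fos and Junb changed sign between times, within -0.41 to 0.60 and -0.53 to 0.40. The median tested gene was 0.07 to 0.53 higher in replicate 1. On the deposited FPKM, Fosl1, Fosl2 and Fosb were called only with the block.

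The genes whose course over the 8 libraries was most like each member were taken by Pearson correlation of log2 values among the tested genes, clone-type and predicted-gene symbols left out, as a description. The points share libraries and depth. For Fos these were Gpr65, a proton-sensing receptor (r = 0.99), Zfp36l1, an mRNA decay factor (0.973), and Azin1, an antizyme inhibitor (0.973). Gpr65 was at 1.97 and 2.09 FPKM at 0 min, 4.13 and 4.75 at 20 min, 1.11 and 1.08 at 60 min, and 0.546 and 0.637 at 180 min, the same order of times as Fos at a far lower level. For Jun they were Olfr920, an olfactory receptor gene (0.978), Ctsb, a lysosomal protease (0.946), and again Gpr65 (0.945). For Junb they were Rnf19b, a ubiquitin ligase (0.972), Nfkbiz, an IkB-family regulator (0.953), and Igsf6 (0.947). Fosl2 was matched by Manbal (0.998), Ptafr, the platelet-activating factor receptor (0.985), and Zc3h12a, an RNase that degrades cytokine mRNA (0.982). For Fosl1 the nearest were Plekhm3 (0.975), Pam (0.965) and Acsl4 (0.965), for Fosb Msantd1 (0.977), Car15 (0.971) and Fermt3 (0.967), and for Jund Hspb7 (0.968), Zfp655 (0.963) and Rccd1 (0.955).

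The pathway around the family was described with lists of its kinases, promoter factors, dimer partners, feedback genes and targets. Among 21 tested kinases of the ERK, JNK and p38 cascades, the unpaired fit found 2 higher and 1 lower after 60 min, and after 180 min 3 higher and 2 lower. With the block these counts were 4 and 3, and 5 and 7. Over all genes the unpaired fit put 5.07% higher at 60 min and 8.8% lower, and 8.93% and 23.4% at 180 min, and the paired fit 11.7% and 27.9%, and 14.2% and 51.6%. The kinases' median change was -0.05 and -0.38, beside -0.29 and -0.69 over all genes. Median-ratio scaling turned the balance to 6 higher and 2 lower, and 7 higher and 3 lower, in the paired fit. The unpaired counts were 3 and 1, and 5 and 2, and the medians 0.24 and 0.31. Of all genes the paired fit then called 19.5% higher and 20.3% lower, and 26.1% and 25.8%. The unpaired fit called 6.72% and 6.63%, and 13.5% and 12.6%. Mapkapk2, the kinase downstream of p38 that stabilises cytokine mRNA, rose from 3.42 ± 0.116 FPKM at 0 min to 29.3 ± 1.31 at 60 min (log2 3.06 ± 0.34, adjusted p = 0.00332) and 36.0 ± 1.47 at 180 min (3.36 ± 0.34, adjusted p = 0.00111). Map3k5 was also higher at 60 min by 1.63. Map3k1, a kinase upstream of JNK, was called lower with changes of -1.63 at 60 min and -2.65 at 180 min, and Mapk3, which encodes ERK1, with -2.81 at 180 min. At 20 min 0 of the 21 were called by the unpaired limma fit, 1 passed an unadjusted p under 0.05, limma-voom called 1, and the paired fit called Mapkapk2 alone (2.39 ± 0.25, adjusted p = 0.00154). Over all genes these fits called 0.108% (unpaired), 0.539% (limma-voom) and 2.3% (paired) higher. An unadjusted p under 0.05 was reached by 498 of the 8343 genes in the unpaired fit.

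Of 14 tested factors known to act on the Fos and Jun promoters, 1 was lower by the unpaired fit after 60 min, and after 180 min 1 was higher and 6 were lower. For the whole tested set, that fit's shares were 5.07% up against 8.8% down (60 min) and 8.93% up against 23.4% down (180 min). With the block 1 factor rose and 3 fell at the earlier time, where 11.7% of tested genes rose and 27.9% fell. By the later time 1 rose and 9 fell, where these shares were 14.2% and 51.6%. The list's median was -0.25 and -0.90, beside -0.29 and -0.69 for the tested genes together. After median-ratio scaling the paired fit had 2 factors higher and 3 lower at 60 min, while 19.5% of tested genes rose and 20.3% fell. For 180 min it had 3 higher and 5 lower, while 26.1% of tested genes rose and 25.8% fell. The factors' medians were then 0.05 and -0.22, beside 0.01 and -0.01 for the tested genes together. Mef2c and Mef2d, members of the MEF2 family that binds A/T-rich elements, were both lower at 180 min, by -2.41 ± 0.55 (adjusted p = 0.0168) and -2.94 ± 0.54 (adjusted p = 0.00792). After median-ratio scaling Mef2c was called by the paired fit only. Elk3, a ternary complex factor, changed by -2.45 ± 0.32 (adjusted p = 0.00241). At 20 min 0 of the 14 passed in the unpaired limma fit, the paired fit, limma-voom with or without the block, or at an unadjusted p under 0.05. Few genes were called higher at that time, 0.108% in the unpaired fit and 2.3% in the paired fit.

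Other bZIP proteins can pair with AP-1 members. Among them Jdp2, a repressor that dimerises with Jun proteins, was found at 0.481 and 0.558 FPKM before LPS, 1.61 and 1.46 at 20 min, 31.3 and 31.9 at 60 min, and 4.50 and 4.64 at 180 min. The 4 times did not overlap, and the log2 change was 5.68 ± 0.26 at 60 min (adjusted p = 0.0011) and 2.92 ± 0.26 at 180 min (adjusted p = 8.5e-04). Its maximum fell at 60 min, when Fos and Jun were below their starting levels. Of the 12 tested partners, 2 were called higher at 60 min, Jdp2 and Maff (3.20 ± 0.67, adjusted p = 0.0228), and 1 was called lower. At 180 min 3 were higher, among them Batf2 at 4.53 ± 0.42 (adjusted p = 9.5e-04) and Batf at 2.00 ± 0.44 (adjusted p = 0.0157), both of which pair with Jun proteins, and 1 was lower. Over all genes the unpaired shares were 5.07% up and 8.8% down at 60 min, and 8.93% and 23.4% at 180 min. With the block 4 partners rose and 2 fell at 60 min, beside 11.7% and 27.9% of all genes. At 180 min 5 rose and 3 fell, beside 14.2% and 51.6%. The list's median was 0.09 and 0.52, against -0.29 and -0.69 over all genes. After median-ratio scaling the paired fit had 4 higher and 2 lower at 60 min, beside 19.5% and 20.3% of all genes. At 180 min it had 7 higher and 1 lower, beside 26.1% and 25.8%. The list's medians were then 0.41 and 1.25. At 20 min the unpaired fit called 0 of 12, with 3 at an unadjusted p under 0.05, limma-voom called 1, and the paired fit called Maff (2.90 ± 0.25, adjusted p = 6.7e-04) and Jdp2 (1.40 ± 0.20, adjusted p = 0.00654). Of all genes at 20 min, the unpaired fit called 0.108% higher, limma-voom 0.539% and the paired fit 2.3%. In the unpaired fit 498 of the 8343 genes had an unadjusted p under 0.05.

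Genes that switch the MAP kinases off included some that rose and some that fell. Of 10 tested, 4 rose and 1 fell by the unpaired fit after 60 min, and after 180 min 3 rose and 3 fell, with medians of 1.35 and -0.02. The median over all genes was -0.29 and -0.69, and the unpaired shares were 5.07% up and 8.8% down, and 8.93% and 23.4%. With the block 7 of the 10 rose and 1 fell after 60 min, beside 11.7% and 27.9% of all genes. After 180 min 4 rose and 3 fell, beside 14.2% and 51.6%. After median-ratio scaling 3 were higher and 1 lower at 180 min in the unpaired fit and 5 and 3 in the paired fit. Of all genes the unpaired fit then called 13.5% higher and 12.6% lower, and the paired fit 26.1% and 25.8%. The list's median was 0.62, beside -0.01 over all genes. Dusp2 rose by 3.90 ± 1.0 at 60 min (adjusted p = 0.0454) and Dusp5 by 3.58 ± 0.32 (adjusted p = 0.00248), while Dusp6, a phosphatase selective for ERK, fell by 2.94 ± 0.33 (adjusted p = 0.00334). The unpaired fit called 0 of the 10 at 20 min, with 5 at an unadjusted p under 0.05, limma-voom called 1, and the paired fit called 5, including Dusp1 at 2.71 ± 0.26 (adjusted p = 0.00109). Among 15 tested immediate early genes outside the family, the unpaired fit called only Egr1 at 20 min, which went from 1.11 and 1.14 FPKM to 92.1 and 96.4 (6.27 ± 0.46, adjusted p = 0.0177), and the paired fit called 10 higher. Their median change was 1.81 at 20 min, 1.04 at 60 min and 0.27 at 180 min, beside -0.2, -0.29 and -0.69 over all genes. Of all genes at 20 min, the unpaired fit called 0.108% higher and the paired fit 2.3%. At 60 min 2 of the 15 were called higher without the block, beside 5.07% of all genes. With it 11 rose and 1 fell, beside 11.7% and 27.9%. Egr1 was at 2.81 and 7.26 FPKM at 60 min, still above 0 min (1.92 ± 0.46, adjusted p = 0.0361). At 180 min the unpaired fit called Gadd45b (2.60 ± 0.48, adjusted p = 0.00787), Ier3 (2.42 ± 0.58, adjusted p = 0.0204) and Zfp36 (1.99 ± 0.54, adjusted p = 0.0314) higher and Myc lower. The paired fit called 5 higher, Egr1 among them, and 2 lower, beside 14.2% and 51.6% of all genes. After median-ratio scaling the unpaired fit called 5 higher at 60 min, against 6.72% of all genes, and 3 at 180 min, against 13.5%. The list's medians were 1.36 and 1.01. Egr1 was then no longer called at 60 min, nor Myc at 180 min.

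Of 15 tested genes that textbooks give as AP-1 targets, 1 rose at 20 min, 9 rose and 2 fell at 60 min, and 7 rose and 2 fell at 180 min, all by the unpaired fit, and the paired fit found 5 higher at 20 min. Their median change was 0.71, 2.28 and 0.72, beside -0.2, -0.29 and -0.69 over all genes. Of all genes, the unpaired fit called 0.108%, 5.07% and 8.93% higher at 20, 60 and 180 min, and 0.0%, 8.8% and 23.4% lower. The paired fit called 2.3% higher at 20 min. Il1b, the cytokine interleukin-1 beta, was at 0.422 and 0.233 FPKM at 0 min, 16.4 and 8.82 at 20 min, 116 and 186 at 60 min, and 261 and 166 at 180 min. It was called at each time, with log2 changes of 4.86, 8.46 and 8.96 ± 0.48 (adjusted p = 0.0301, 0.00151 and 3.6e-04). Mmp13, a collagenase, rose by 5.06 ± 0.94 at 60 min (adjusted p = 0.0158) and 6.50 ± 0.94 at 180 min (adjusted p = 0.00345). Csf2, which encodes GM-CSF, had 0.006 and 0.0 FPKM before LPS and 4.22 and 1.91 at 60 min, and Il6 had 0.024 and 0.0 before LPS and 26.2 and 49.7 at 180 min. Il1b, Il6 and Mmp13 were thus high at 180 min, when Fos was at its lowest and Junb made up most of the family's signal. The list as a whole did not keep rising. From 60 to 180 min its median change was -0.40, beside -0.39 over all genes. The unpaired fit called 2 higher and 3 lower in that step, beside 4.08% and 3.92% of all genes. With the block 3 were higher and 6 lower, beside 10.5% and 26.9%. Any link between these genes and the AP-1 members was not tested. No binding of AP-1 to these genes was measured.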

How the data were processed

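Nascent RNA was measured by GRO-seq in 8 libraries, 2 at each of 4 times. Per the labels, the replicates are biological; whether same-numbered replicates share mice is not given in the sources used here. The deposited table holds FPKM per gene, made by the authors; the submitters' processing notes name CASAVA 1.7, Bowtie2 2.0.5, HOMER 4.6 and 4.7 and build mm9, with no role or order. Strand handling, duplicates and the reads behind the FPKM total are not given. Another 8 columns, of a second treatment, were not used.

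The members and lists were chosen with earlier results of these data known. All 7 members were named. From each list the 3 genes with the largest change among those called were named at each time, from the paired fit where the unpaired fit called none, and for each member the 3 genes of highest correlation. Some genes that these rules would name are not reported here.

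The 8343 genes whose mean FPKM reached 0.5 were tested, without further scaling. Limma 3.58.1 in R 4.3.3 fitted log2(FPKM + 0.1) over 4 groups with a variance trend, with two-sided moderated tests. Fold changes on this scale understate those of low genes. Replicate 1 minus replicate 2 correlated at 0.59 to 0.88 between groups, so replicate numbers were taken to pair the libraries, from the data and not from a stated design. Depth was recovered from FPKM steps in genes of up to 4000 bases, where 98.3 to 100% of values were whole reads within 0.1 read. Intervals of reads are 95% Poisson and cover counting error only. The fits and the depth step were tested on simulated data. Alternatives were the pseudocount, filter, scaling, samples fitted, the block, limma-voom on recovered reads and each library left out.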

Additional observations from a re-analysis of the deposited data

How the results depend on the processing

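Counts of members called, of 7, were 0, 3, 3, 2 and 1 for 20, 60 and 180 min against 0 min, 60 against 20 min and 180 against 60 min, and 3 in the F-test. Of all tested genes, 0.108%, 5.07%, 8.93%, 2.28% and 4.08% were called higher in these 5 comparisons. Lower calls took 0.0%, 8.8%, 23.4%, 3.46% and 3.92%, and the F-test called 24.6%. With the replicate block the member counts were 3, 5, 4, 4, 2 and 6. The block called 2.3%, 11.7%, 14.2%, 9.29% and 10.5% of all genes higher and 0.683%, 27.9%, 51.6%, 14.6% and 26.9% lower, and 66.1% in the F-test. Adding median-ratio scaling to the block gave equal member counts, with Jund in place of Jun at 180 min and in place of Fosb in the F-test. Shares of all genes for the 5 comparisons after this scaling are given above. Voom gave 2 at 20 min, where it called 0.539% of all genes higher, and voom with the block 4, 6, 5, 4, 3 and 6. In that last fit 2701, 4495, 6014, 3630 and 4378 of the 8343 genes had an unadjusted p under 0.05 in the 5 comparisons. Fitting only the compared groups gave 0, 1, 0 and 0 from 60 min against 0 min on, no filter 1, 1 and 0 at 60, 180 and 180 against 60 min, and median-ratio or quantile scaling 0 in the last. With 1 library left out, the lone sample of its group being taken to vary like the others, counts ran 0 to 0, 0 to 2, 1 to 3, 0 to 2, 0 to 1 and 2 to 3 unpaired, and 1 to 3, 5 to 6, 3 to 5, 2 to 5, 2 to 3 and 5 to 6 with the block. A filter of 1 FPKM gave no value for Fosb and Fosl1.

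Each member change called by either fit on the deposited FPKM kept its sign in every alternative run, while some uncalled ones did not. Under quantile scaling the log2 change was -0.18 for Jund at 60 min, and 0.27 for Fosb, 0.52 for Fosl1 and -0.22 for Jund at 180 min. Median-ratio scaling, with or without the block, gave 0.19 for Fosl1 at 180 min, and 0.03 for Fosl2 and 0.34 for Jund from 60 to 180 min. Voom gave Fosb -0.02, and -0.16 with the block, and Jund 0.00 in that step. With 1 library left out, changes at 20 min ran from -0.44 to 1.16 for Fosb and -0.05 to 1.31 for Fosl1, and at 60 min from -0.48 to 0.75 for Jund. At 180 min they ran from -1.49 to 0.11 for Fosb, -1.08 to 0.28 for Fosl1 and -0.60 to 0.73 for Jund. From 20 to 60 min they ran from -0.49 to 0.04 for Junb and -1.08 to 0.15 for Jund. From 60 to 180 min they ran from -0.55 to 0.81 for Fosb, -0.89 to 0.14 for Fosl2, -0.19 to 0.32 for Jun and -0.74 to 0.59 for Jund. With the block and 1 library left out, the sign turned for Jund at 60 min (-0.06 and -0.01) and 180 min (-0.13 and -0.14), Fosl1 at 180 min (0.08), Junb from 20 to 60 min (0.08 and 0.09), and Fosb (-0.07 and -0.33) and Jund (0.07 and 0.13) from 60 to 180 min. The cause was not tested. Depth limits Fosb and Fosl1 most, with as few as 17 and 24 reads.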
